A study of Mus musculus with 55 samples.

Results

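The genes described here encode scaffolds, kinases and their partners of the postsynaptic density, in RNA-seq of primary mouse forebrain neurons. The 38 members were taken as a list of gene symbols, by a rule that used no measured value, though the list was drawn up with earlier results of these data known. All 38 were found among the 27020 genes counted in both experiments of the series. Neurons came from cortex and hippocampus of CD1 embryos of mixed sex at embryonic day 16 to 17.5, were kept in 24-well plates, and are given by their days in vitro (DIV). The maturation experiment held 28 samples of neurons at 7DIV and at the stage labelled 23DIV. They were basal, depolarized with 55 mM KCl, or driven with 50 µM bicuculline, which blocks GABA-A receptors, plus 2.5 mM of the potassium channel blocker 4-aminopyridine (Bic with 4-AP), for 15 or 180 min. The stimuli experiment held 27 samples at 21DIV, treated for 15, 45 or 180 min with 55 mM KCl, with 50 µM bicuculline alone (Bic) or by washing out the sodium channel blocker tetrodotoxin (TTX) after 48 h at 1 µM (TTX withdrawal, TTXw). Its controls were basal neurons and neurons still silenced by TTX. For TTXw, the paper states that control neurons were washed in the same way. For KCl and Bic, it states that basal wells had medium exchanged without the drug. Each group had 3 samples, except 4 in TTX and 2 each in both Bic with 4-AP groups at 23DIV, in all KCl and Bic groups at 21DIV and in TTXw at 45 min.

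The postsynaptic density is a dense protein layer under excitatory synapses. Membrane-associated guanylate kinases of the PSD-95 family (Dlg genes) hold glutamate receptors and adhesion proteins at the membrane, SAPAP proteins (Dlgap genes) tie them to Shank scaffolds, and Homer proteins link Shanks to receptors that release calcium. Calcium entering through NMDA receptors binds calmodulin and activates CaMKII, the kinase of synaptic plasticity. Regulators of small GTPases pass the signal on to the actin of dendritic spines.

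Counts on genes ranged from 1659263 to 14008626 per library in the maturation experiment and from 1176887 to 3907601 in the stimuli experiment. No pair of replicates agreed within sampling noise, and since nothing says that replicates came from separate cultures, p-values measure only the spread between these libraries. The summed level of 7 neuron markers was 9331 to 9519 CPM (counts scaled to library size) in basal 7DIV, 6302 to 7533 in basal 23DIV and 7913 to 8499 in basal 21DIV libraries. Astrocyte markers (8 genes) summed to 585 to 857 CPM in basal 7DIV, 4605 to 5618 in basal 23DIV and 2564 to 3180 in basal 21DIV libraries, so astrocyte RNA was present beside that of neurons. The 6 microglia markers summed to at most 20.5 CPM in any library. C1qa, Cx3cr1 and P2ry12 among them, and Mog among the oligodendrocyte lineage markers, were at 0 in some groups, while no neuron or astrocyte marker was. In bulk samples, fewer cells of a type and less RNA per cell cannot be told apart.

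Start regions of 28 members were held in the RefSeq table of build GRCm38.p6, in 46 windows of 300 bases that run from 250 bases before the start. The sequence GGGCGG (GC box), searched on both strands like all motifs here, was in 52.2% of these windows and in 35.7% of all 32851 windows. The other motifs were those of factors known for activity-dependent transcription. The cyclic AMP response element TGACGTCA was in 0 of the 46 windows against 1.79% of all windows, and its core TGACG, which it contains, was in 15.2% against 20.8%. The AP-1 sequences TGACTCA and TGAGTCA were in 0 of 46 windows against 5.2%. The CACGTG E-box was in 8.7% against 7.15%. The EGR sequence GCGTGGGCG was in 1 window, that of Shank3, which is 2.17% against 0.612% of all windows. The MEF2 and SRE sequences searched were in 0 of 46 windows, against 0.274% and 0.116% of all.

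The start regions of 3 members are shown because their values carry the results below: Nrgn and Dlgap3 moved with most stimuli, and Rasgrf1 rose with maturation. Capitals mark TGACG or GGGCGG on either strand. The Nrgn window (chr9:37552696-37552995, minus strand) holds 59.3% G and C and 1 GC box. The Dlgap3 window (chr4:127172630-127172929, plus strand) holds 47.7% and no match to any of these motifs. It belongs to an annotated start within the gene, which begins upstream at chr4:127168305. The Rasgrf1 window (chr9:89909525-89909824, plus strand) holds 68.3%, 1 TGACG and 2 GC boxes.
Nrgn: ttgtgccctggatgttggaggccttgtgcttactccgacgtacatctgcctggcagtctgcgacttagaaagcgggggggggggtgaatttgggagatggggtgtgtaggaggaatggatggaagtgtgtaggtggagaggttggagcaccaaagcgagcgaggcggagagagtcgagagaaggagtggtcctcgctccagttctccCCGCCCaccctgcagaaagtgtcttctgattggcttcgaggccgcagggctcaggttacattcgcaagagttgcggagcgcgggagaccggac
Dlgap3: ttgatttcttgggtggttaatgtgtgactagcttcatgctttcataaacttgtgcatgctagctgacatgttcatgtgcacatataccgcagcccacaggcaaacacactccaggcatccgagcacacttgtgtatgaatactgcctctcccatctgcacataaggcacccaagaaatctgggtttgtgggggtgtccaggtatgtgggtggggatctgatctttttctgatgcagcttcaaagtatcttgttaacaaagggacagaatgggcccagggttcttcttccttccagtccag
Rasgrf1: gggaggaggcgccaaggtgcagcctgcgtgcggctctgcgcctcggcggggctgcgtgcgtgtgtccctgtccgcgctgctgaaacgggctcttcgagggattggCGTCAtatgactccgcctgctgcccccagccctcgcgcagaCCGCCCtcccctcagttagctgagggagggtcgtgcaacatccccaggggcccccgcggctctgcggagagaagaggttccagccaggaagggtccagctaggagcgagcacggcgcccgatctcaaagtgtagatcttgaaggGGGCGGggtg

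Basal 23DIV neurons were first compared with basal 7DIV neurons, which asks how these genes change as neurons mature. Of 37 members tested, 21 rose and 0 fell, at an adjusted p below 0.05 and 1.5-fold or more (a call, from edgeR's quasi-likelihood test, with p adjusted over all genes tested). In the comparisons with several times below, a fold change is given at the time of the largest change and the adjusted p beside it is that of all times together. Of all 10506 genes tested, 18.2% were called higher, and 1569 were called lower. The median log2 fold change was 0.85 over the members, which were higher in 30 of 37, and 0.01 over all genes. Shank3 did not pass the filter of 5 CPM in at least 2 libraries. Markers of other cells moved too: 7 of 8 astrocyte markers, 7 of 7 tested oligodendrocyte lineage markers and 4 of 5 interneuron markers were called higher. Of 7 neuron markers, 4 were called higher and 3 lower, with a median log2 fold change of 0.78. The part of cell makeup in these changes was not tested.

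In calcium and calmodulin signalling 7 of 9 members were called, among them Camk2n1, which rose most of the 37 members. Camk2n1, an inhibitor protein of CaMKII, was at 131.6, 126.5 and 139.5 CPM in the 7DIV libraries and at 1329, 1684 and 3026 CPM in the 23DIV libraries, a log2 fold change of 3.95 ± 0.25 (SE, adjusted p = 7.26e-08). Nrgn, which encodes the calmodulin-binding protein neurogranin, went from 314, 365 and 246 CPM to 1557, 3015 and 3615 CPM (3.18 ± 0.26, adjusted p = 5.97e-07). Camk2a, the alpha subunit of CaMKII, went from 33.02, 42.15 and 38.03 CPM to 254, 285 and 255 CPM (2.84 ± 0.15, adjusted p = 1.77e-08). In each of these genes every 23DIV library lay above every 7DIV library. The CaMKII subunits differed among themselves. Camk2d rose with a log2 fold change of 2.24, while Camk2b, the beta subunit, had -0.02 ± 0.14 (adjusted p = 0.933) and Camk2g had 0.23 ± 0.19 (adjusted p = 0.381). The catalytic calcineurin subunit gene Ppp3ca (1.14) and Camk4, a kinase found mainly in the nucleus (0.85), also rose. Prkca, a protein kinase C gene, was called at 0.59 but lost the call without 23DIV replicate 2 or 3 or 7DIV replicate 3 or 4, where its lowest value was 0.39. Its call was also lost in 5 of 7 alternatives, which were DESeq2, RLE size factors, counts summed over transcripts, counts thinned to the smallest library of the experiment and a fit of all its samples.

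Among GTPase regulators and actin linkers, 6 of 10 rose. Rasgrf1, a calcium-regulated exchange factor for Ras, was at 15.6, 14.7 and 29.9 CPM in the 7DIV libraries and at 176, 204 and 258 CPM in the 23DIV libraries (log2 fold change 3.36 ± 0.25, adjusted p = 2.7e-07), again with no overlap. Baiap2 (IRSp53, a link between Rac, membrane and actin) rose by 1.41, Iqsec2 and Iqsec1, both exchange factors for Arf GTPases, by 1.40 and 0.75, Sorbs2 (an actin-linked adaptor) by 1.30 and Sipa1l1 (SPAR, an activator of Rap hydrolysis) by 1.08. The 4 others had values between -0.04 (Cnksr2) and 0.55 (Ppp1r9b, spinophilin, adjusted p = 0.0127). Ppp1r9b passed the p threshold but not the fold.

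Among the scaffolds, 3 of 4 PSD-95 family genes rose. Dlg1 (SAP97) had 45.3, 50.1 and 61.8 CPM at 7DIV and 180, 193 and 234 CPM at 23DIV (log2 fold change 1.96 ± 0.17, adjusted p = 9.74e-07). Dlg4, the PSD-95 gene itself, went from 23.1, 21.99 and 19.4 CPM to 50.1, 37.9 and 77.8 CPM (1.41 ± 0.26, adjusted p = 0.000755), and Dlg3 (SAP102) rose by 0.92, a call lost with thinned counts. Dlg2 (PSD-93) had 0.30 ± 0.15 (adjusted p = 0.123). The SAPAP genes Dlgap3 (1.46), Dlgap2 (1.29) and Dlgap1 (1.09) rose, and Dlgap4 had 0.21 ± 0.14 (adjusted p = 0.283). Of the Shank and Homer genes, Homer2 (1.04) and Shank2 (0.88) rose, while Shank1 had -0.18 ± 0.33 and Homer3 -0.38 ± 0.30.

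None of the 6 adhesion and receptor-linked genes (Nlgn1, Nlgn3, Lrrtm1, Lrrtm2, Lrrc7 and Gripap1) was called. Their log2 fold changes lay between -0.26 (Lrrtm1) and 0.42 (Nlgn3), with a median of 0.01. Of 60 other postsynaptic genes, 55 were tested, and 21 were called higher and 4 lower, with a median of 0.30.

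**Figure D1:**
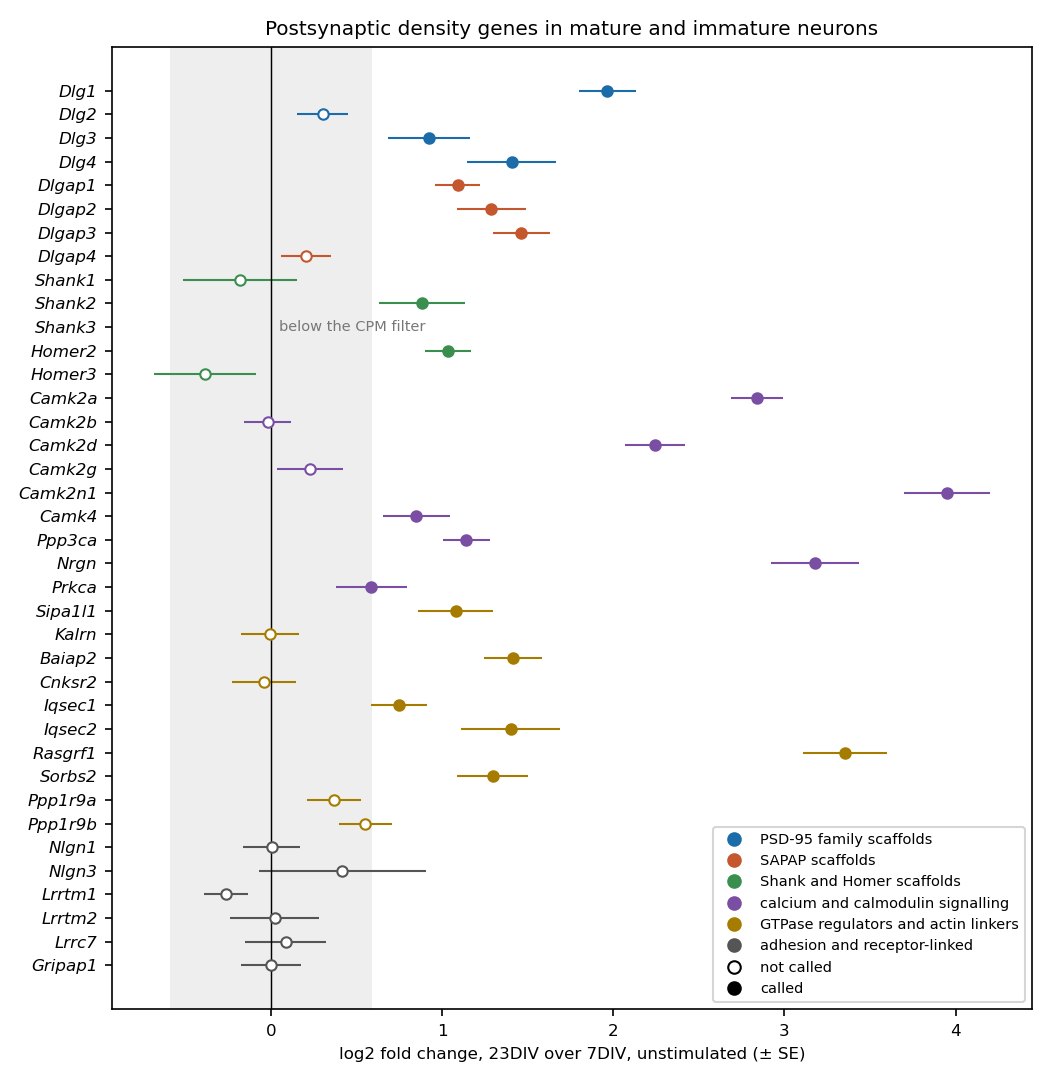
Log2 fold change of each member between basal 23DIV and basal 7DIV neurons (x axis, with standard errors, 3 libraries a stage), with genes on the y axis grouped by role. Filled points are called, open points are not, and grey marks changes under 1.5-fold. The 21 called genes all lie to the right, led by Camk2n1 at 3.95, and the 6 adhesion and receptor-linked genes lie near 0.

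Stimulation of 7DIV neurons was compared with basal 7DIV neurons next, over 15 and 180 min together. No member was called in KCl, where 2.29% of 11742 genes were (edgeR). An unadjusted p under 0.05 was found in 3 of 38 members and in 1551 of the 11742 genes. DESeq2 called 0 members as well. The lowest adjusted p was 0.193 for Baiap2, with log2 fold changes of 0.02 ± 0.18 at 15 min and -0.52 ± 0.19 at 180 min. In Bic with 4-AP, edgeR called 0 of all genes (0%), DESeq2 26, and no member was called by either. By edgeR, 2 of 38 members and 846 of 11742 genes had an unadjusted p under 0.05. At 180 min, 21 of 38 members were higher in KCl and 13 of 38 in Bic with 4-AP.

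At 23DIV the same depolarization was followed by lower levels of postsynaptic density genes. KCl lowered 10 of 38 members and raised 0, where 3.5% of 11742 genes were called lower and 485 genes higher. The median change at 15 min was -0.33 on the log2 scale over the members and 0.00 over all genes, and 29 of 38 members were lower. Camk4 was at 85.9, 146 and 123 CPM in basal libraries, at 61.4, 46.99 and 57.6 CPM after 15 min and at 72.3, 57.3 and 55.9 CPM after 180 min (log2 fold change at 15 min -1.09 ± 0.19, adjusted p = 0.000306), so every KCl library lay below every basal one. Nrgn had 1557, 3015 and 3615 CPM in basal, 1138, 1269 and 1596 CPM at 15 min and 2307, 1087 and 1434 CPM at 180 min (-1.03 ± 0.25 at 15 min, adjusted p = 0.0122). Basal replicate 1 of Nrgn lay within the KCl range, and its call was lost without basal replicate 2 or 3, with a smallest change of -0.78. Dlgap3, a scaffold that binds PSD-95, had 143, 195 and 204 CPM in basal, 158, 135 and 93.4 CPM at 15 min and 101, 82.4 and 86.5 CPM at 180 min, where the groups did not overlap (-1.01 ± 0.18 at 180 min, adjusted p = 0.0019). Baiap2 went from 249, 326 and 320 CPM to 128.5, 152 and 190.5 CPM at 15 min (-0.93 ± 0.17, adjusted p = 0.00149), with no overlap, and to 248.5, 151 and 164 CPM at 180 min.

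The other 6 called genes had their largest change at 15 min: Sipa1l1 (-0.88), Iqsec2 (-0.88), Dlgap1 (-0.81), Cnksr2, a scaffold of Ras and Rap signalling (-0.77), Ppp3ca (-0.77) and Camk2g (-0.60). By role, 2 of 4 SAPAP genes, 4 of 9 calcium genes and 4 of 10 GTPase regulators and actin linkers fell, and 0 of the 15 in the remaining roles. Of 56 other postsynaptic genes tested, 9 were called lower and 0 higher. Neuron markers summed to 5594 to 5780 CPM after 15 min of KCl against 6302 to 7533 in basal. Astrocyte markers summed to 4155 to 4713 against 4605 to 5618 CPM. At each gene's largest change, the median was -0.37 over the 7 neuron markers and -0.36 over the members. Of the neuron markers, Rbfox3 and Tubb3 were called lower and 0 higher. The part of the markers in the members' change was not tested. Sipa1l1 and Dlgap1 lost their calls without basal replicate 2 or 3 or KCl 15 min replicate 1, and Camk2g and Iqsec2 also without KCl 15 min replicate 2 or KCl 180 min replicate 2 or 3, at smallest values of -0.70, -0.49, -0.43 and -0.74. The count of 10 fell to 5 without basal replicate 2, to 5 without basal replicate 3, to 6 without KCl 15 min replicate 1 and to 6 when only the groups compared were fitted. In that last fit Camk2g, Cnksr2, Dlgap1, Iqsec2, Nrgn and Sipa1l1 lost their calls, and Camk2a and Shank2, not among the 10, were called lower. Camk2g and Iqsec2 also lost their calls with thinned counts.

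Bic with 4-AP at 23DIV, compared with the same basal libraries, lowered 12 of 38 members and raised 0. All 12 had their largest change at 180 min. Of 11742 genes, 5.81% were called lower, and 764 were called higher. At 15 min the members had a median of 0.05 with 25 of 38 higher, and at 180 min of -0.39 with 30 of 38 lower, against -0.02 over all genes. Nrgn had 4202 and 2766 CPM at 15 min and 816 and 925 CPM at 180 min, below all 3 basal libraries (log2 fold change at 180 min -1.65 ± 0.29, adjusted p = 0.000117). Camk4 was at 135 and 103 CPM at 15 min and at 46.6 and 35.9 CPM at 180 min (-1.51 ± 0.22, adjusted p = 3.6e-05). Dlgap3 was at 194 and 186 CPM and then at 59.3 and 83.2 CPM (-1.35 ± 0.22, adjusted p = 8.94e-05). Iqsec2 was at 24.97, 42.6 and 40.99 CPM in basal, 37.0 and 23.6 CPM at 15 min and 16.1 and 16.2 CPM at 180 min (-1.16 ± 0.29, adjusted p = 0.0183). In all 4 genes both 180 min libraries lay below every basal library.

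The other called genes were Sipa1l1 (-0.85), Kalrn, an exchange factor for Rac (-0.81), Camk2b (-0.76), Cnksr2 (-0.75), Dlgap4 (-0.75), Homer2 (-0.73), Camk2n1 (-0.69) and Baiap2 (-0.66). Camk2a was not called (adjusted p = 0.0639): it had 624 and 507 CPM at 15 min, but 126 and 753 CPM in the 180 min libraries. Without Bic with 4-AP 180 min replicate 2, 5 members were called lower and 1, Camk2a, higher, and without 180 min replicate 3, 8 were called lower and Camk2a higher. The calls of Nrgn, Camk4, Dlgap3, Camk2b and Dlgap4 were not lost when any 1 library was left out. Iqsec2 lost its call without either 180 min library or basal replicate 2 or 3 (smallest value -1.03), Baiap2 without these or 15 min replicate 1 (-0.55), Cnksr2 without either 180 min library or basal replicate 2 (-0.57) and Sipa1l1 without either 180 min library (-0.66). Camk2n1 had 0.50 ± 0.25 at 15 min, and its adjusted p at 180 min alone was 0.065. It lost its call without 15 min replicate 1 or 180 min replicate 2 (-0.27) and was called higher, with its largest change at 15 min, without 15 min replicate 2 or basal replicate 3. Kalrn lost it without 180 min replicate 2 or basal replicate 2 (-0.43) and Homer2 without 180 min replicate 2 (-0.63). Camk2n1, Cnksr2, Kalrn and Sipa1l1 lost their calls when only the groups compared were fitted, Iqsec2 and Sipa1l1 with thinned counts and Baiap2 with summed counts. Of the other postsynaptic genes, 13 of 56 were called lower and 1 higher. Astrocyte markers summed to 1748 and 3351 CPM and neuron markers to 5589 and 6085 CPM at 180 min, both below basal. The median at each gene's largest change was -0.31 over the 7 neuron markers and -0.40 over the members. Rbfox3, Tubb3 and Slc17a7 were called lower and 0 neuron markers higher. The part of the markers was not tested.

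The difference between the stages was tested as an interaction, called at an adjusted p under 0.05. In KCl, 3 of 38 members had a lower response at 23DIV than at 7DIV, where 1.07% of 11742 genes did. An unadjusted p under 0.05 (edgeR), in either direction, was found in 19 of 38 members and in 2054 of 11742 genes. Nrgn differed by -1.47 ± 0.35 at 15 min (adjusted p = 0.0478), Camk4 by -1.18 ± 0.27 at 180 min (adjusted p = 0.017) and Cnksr2 by -0.88 ± 0.23 at 15 min (adjusted p = 0.049). The 7DIV levels behind this were 314, 365 and 246 CPM of Nrgn in basal and 493, 425 and 328 CPM after 15 min of KCl, 75.9, 64.2 and 61.2 CPM of Camk4 in basal and 79.0, 89.8 and 70.6 CPM after 180 min, and 116, 161 and 117 CPM of Cnksr2 in basal and 136, 132 and 155 CPM after 15 min. At 23DIV Cnksr2 had 97.3, 155 and 122 CPM in basal and 65.3, 69.5 and 84.3 CPM after 15 min. Leaving out 1 library at a time, Camk4 kept its call in 16 of 18 fits, Cnksr2 in 6 and Nrgn in 5. Members with a lower response numbered 0 without 23DIV basal replicate 2 or 7DIV basal replicate 4 (in the latter fit 1 member, Sorbs2, had a higher one) and 1 without 23DIV basal replicate 3, 23DIV KCl 15 min replicate 1 or 2, 7DIV KCl 15 min replicate 1 or 7DIV KCl 180 min replicate 2 or 3, and 5, 6 and 7 without 23DIV KCl 180 min replicate 1, KCl 15 min replicate 3 and basal replicate 1. Nrgn and Cnksr2 lost their calls under RLE size factors, with summed or thinned counts and when only the groups compared were fitted.

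In Bic with 4-AP, 6 of 38 members had a lower response at 23DIV, where 1.94% of 11742 genes did. Dlgap3 differed by -1.61 ± 0.29 (adjusted p = 0.00196), Nrgn by -1.43 ± 0.38 (0.0343), Camk4 by -1.30 ± 0.29 (0.0135), Camk2b by -0.83 ± 0.19 (0.014), Dlgap4 by -0.74 ± 0.20 (0.0442) and Ppp3ca by -0.49 ± 0.20 (0.0409), all at 180 min and with edgeR's adjusted p over both times. For 180 min alone the adjusted p of Ppp3ca was 0.166, and at 15 min its difference was 0.37 ± 0.20. At 7DIV Dlgap3 was at 61.3, 65.4 and 72.8 CPM in basal and 77.6, 72.4 and 89.9 CPM after 180 min, and Camk2b at 399, 369 and 418 CPM and 414, 392 and 438 CPM. At 23DIV Camk2b went from 417, 314 and 419 CPM to 244 and 209 CPM. At 7DIV the groups of both genes overlapped and neither was called, while at 23DIV they did not overlap. Leaving out 1 library at a time, Dlgap3 kept its call in 15 of 16 fits, Camk2b in 14, Camk4 in 13, Nrgn in 7 and Dlgap4 and Ppp3ca in 5 each. In 2 of these 5 fits, without 23DIV 15 min replicate 2 or basal replicate 3, the largest difference of Ppp3ca was at 15 min and higher. Members with a lower response numbered 0 without 23DIV 180 min replicate 2, where only Camk2a was called, as higher, 2 without 23DIV 180 min replicate 3, and 3 without 23DIV 15 min replicate 1, 23DIV basal replicate 2 or 3 or 7DIV 180 min replicate 1 or 2. Dlgap4 lost its call without a filter on low counts, with thinned counts and when only the groups compared were fitted, and Nrgn and Ppp3ca with summed counts.

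**Figure D2:**
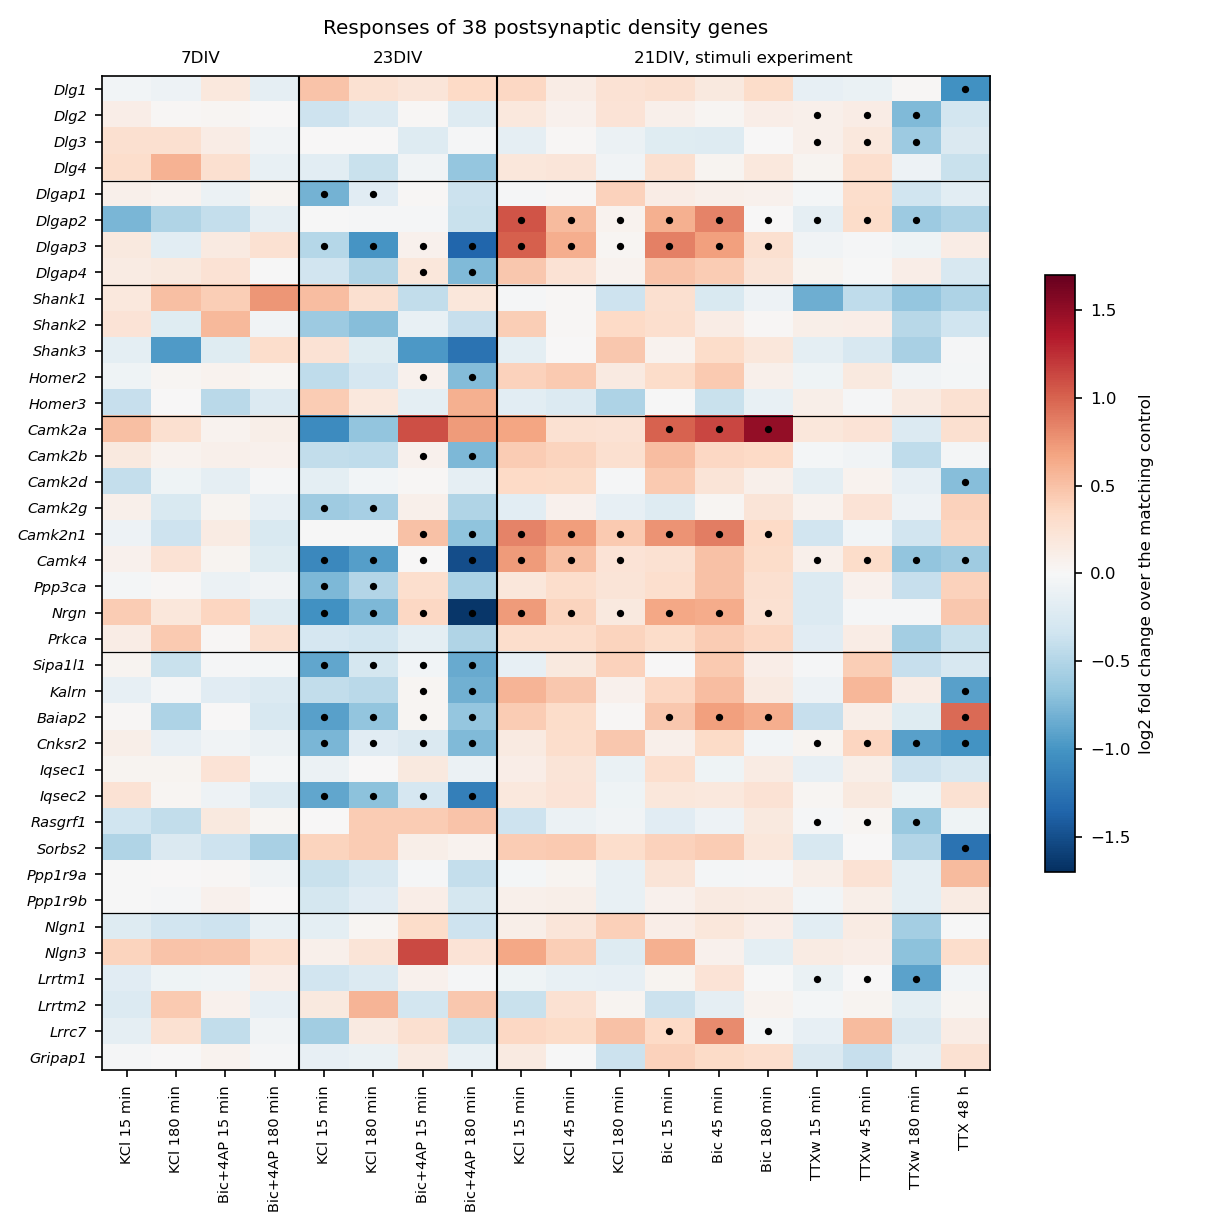
Log2 fold change of the 38 members (rows, grouped by role) in each stimulus and time (columns), red for higher and blue for lower than the matching control, which is basal for KCl, Bic and TTX and TTX for TTXw. Dots stand in all times of a comparison in which the gene was called, and the blocks of columns show no dot at 7DIV, dots mostly on blue at 23DIV and dots mostly on red for KCl and Bic at 21DIV.

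In the stimuli experiment, KCl at 21DIV raised 5 of 38 members and lowered 0, where 4.36% of 12023 genes were called higher and 220 lower. All 5 had their largest change at 15 min. Dlgap2, a SAPAP scaffold, was at 58.2, 46 and 47.9 CPM in basal, 97.8 and 115 CPM at 15 min, 66.1 and 82.2 CPM at 45 min and 46.5 and 58.5 CPM at 180 min (log2 fold change at 15 min 1.06 ± 0.18, adjusted p = 0.00024). Dlgap3 was at 87.7, 102 and 89.5 CPM in basal and 199 and 176, 160 and 124, and 104 and 86.9 CPM at the 3 times (1.01 ± 0.16, adjusted p = 7.64e-05). In both genes the 15 and 45 min libraries lay above every basal library, and the 180 min libraries overlapped basal.

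Camk2n1 was at 1003, 1001 and 1239 CPM in basal, 2072 and 1815 CPM at 15 min, 1934 and 1592 CPM at 45 min and 1399 and 1533 CPM at 180 min (0.85 ± 0.14 at 15 min, adjusted p = 0.000232). Nrgn was at 1402, 1350 and 1583 CPM in basal, 2489 and 2297 CPM at 15 min, 2029 and 1727 CPM at 45 min and 1529 and 1703 CPM at 180 min (0.73 ± 0.12, adjusted p = 0.000451). Camk4 was at 58.7, 66.98 and 66.8 CPM in basal, 91.3 and 119 CPM at 15 min, 95.8 and 86.0 CPM at 45 min and 76.9 and 73.8 CPM at 180 min (0.72 ± 0.15, adjusted p = 0.00581). Every KCl library of Camk2n1 and Camk4 lay above every basal library. Camk4 lost its call without KCl 15 min replicate 2 or basal replicate 1, with a smallest value of 0.50, and with thinned counts. Of the other postsynaptic genes, 4 of 56 were called higher and 0 lower. Neuron markers summed to 9337 to 9375 CPM after 15 min against 7913 to 8499 in basal, and astrocyte markers to 4788 to 4823 against 2564 to 3180. Taken at each gene's largest change, the median was 0.40 over 7 neuron markers and 0.39 over the members. Tubb3 and Slc17a7 were called higher and 0 neuron markers lower. The part of the markers was not tested.

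Bic alone, compared with the same basal libraries as KCl, raised 7 of 38 members and lowered 0. Of 12023 genes, 4.69% were called higher, and 258 were called lower. At 45 min, 31 of 38 members were higher, with a median of 0.27 against 0.02 over all genes. Camk2a was at 151, 209 and 153 CPM in basal, 309 and 377 CPM at 15 min, 279 and 467 CPM at 45 min and 694 and 267 CPM at 180 min (1.49 ± 0.26 at 180 min, adjusted p = 0.000734), so every Bic library was above basal but those of 180 min lay far apart. Its value was 0.63 without Bic 180 min replicate 2 and at most 2.02 without any other library, and its call was kept in all 9 such fits. Camk2n1 had 1659 and 2010 CPM at 15 min, 2000 and 1941 CPM at 45 min and 1446 and 1293 CPM at 180 min (0.87 ± 0.14 at 45 min, adjusted p = 6.98e-05). Dlgap3 had 170.5 and 166, 139 and 161, and 120 and 104 CPM (0.86 ± 0.17 at 15 min, adjusted p = 0.00112). Dlgap2 had 89.4 and 61.3, 93.3 and 88.9, and 53.8 and 48.9 CPM (0.84 ± 0.18 at 45 min, adjusted p = 0.00201). At 180 min the log2 values of Dlgap3 and Dlgap2 were 0.27 ± 0.16 and 0.01 ± 0.19.

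Lrrc7, the densin-180 gene whose product binds CaMKII, was at 74.2, 80.6 and 64.6 CPM in basal, 95.0 and 89.3 CPM at 15 min, 147 and 110 CPM at 45 min and 78.2 and 64.5 CPM at 180 min (0.81 ± 0.20 at 45 min, adjusted p = 0.0154). Baiap2 was at 152, 133 and 166 CPM in basal, 217 and 196 CPM at 15 min, 232 and 254 CPM at 45 min and 242 and 219 CPM at 180 min (0.69 ± 0.14 at 45 min, adjusted p = 0.00119). Nrgn had 2147 and 2394, 2148 and 2317, and 1695 and 1769 CPM (0.65 ± 0.12 at 15 min, adjusted p = 0.000322). All Bic libraries of Baiap2 and Nrgn lay above their basal libraries. Baiap2 and Nrgn lost their calls without basal replicate 2 and Lrrc7 without Bic 45 min replicate 1, at smallest values of 0.58, 0.57 and 0.60. Lrrc7 also lost its call with summed or thinned counts. Of the other postsynaptic genes, 10 of 56 were called higher and 0 lower. Astrocyte markers summed to 5255 to 5899 CPM and neuron markers to 8870 to 9135 CPM at 45 min of Bic. Over 7 neuron markers the median at each gene's largest change was 0.39, and over the members 0.36. Rbfox3 and Tubb3 were called higher and 0 neuron markers lower. The part of the markers was not tested.

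Bic was also compared with KCl at matched times. Only Camk2a of 38 members was called, higher in Bic (1.25 ± 0.30 at 180 min, adjusted p = 0.0181), where 0.649% of 12023 genes were called higher. Its libraries had 694 and 267 CPM in Bic and 149 and 251 CPM in KCl at 180 min. The call was lost under DESeq2 and without Bic 180 min replicate 2 (value 0.39), Bic 45 min replicate 2, KCl 180 min replicate 1 or either KCl 45 min library. By edgeR, 5 of 38 members and 1270 of 12023 genes had an unadjusted p under 0.05.

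KCl lowered members at 23DIV in 1 experiment and raised members at 21DIV in the other, and the difference was tested in a comparison chosen after these results had been seen. Both sets of basal, 15 and 180 min libraries were fitted together. The transcript with the most counts was chosen in each experiment apart, and for Dlgap3, Baiap2 and Ppp3ca it was not the same one. Of 38 members, 8 had a lower KCl response at 23DIV than at 21DIV and 0 a higher one. Of 11421 genes, 1.48% had a lower one and 165 genes a higher one. The differences were largest at 15 min in Camk4 (-1.77 ± 0.27, adjusted p = 0.00607), Nrgn (-1.72 ± 0.36, 0.0311), Camk2a (-1.69 ± 0.32, 0.0194), Dlgap3 (-1.46 ± 0.26, 0.0145), Baiap2 (-1.32 ± 0.27, 0.0276), Ppp3ca (-0.92 ± 0.22, 0.0432) and Camk2b (-0.81 ± 0.20, 0.0484), and at 180 min in Shank2 (-1.03 ± 0.24, 0.0237), by edgeR with adjusted p over all genes. Nrgn started from 1557 to 3615 CPM in basal 23DIV and 1350 to 1583 CPM in basal 21DIV libraries and reached 1138 to 1596 and 2297 to 2489 CPM after 15 min. Camk2a started from 254 to 285 CPM and from 151 to 209 CPM and reached 93.8 to 148.5 and 206 to 337 CPM.

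The stage labels differed between the experiments, so stage and experiment cannot be told apart. Astrocyte markers were at 4605 to 5618 CPM before and 4155 to 4713 CPM after 15 min of KCl at 23DIV, and at 2564 to 3180 and 4788 to 4823 CPM at 21DIV. The calls rested on few libraries. Without 1 library, 1 member was called without 21DIV KCl 15 min replicate 2 or basal replicate 5, 2 without 21DIV basal replicate 1, 3 without 21DIV basal replicate 2, 21DIV KCl 15 min replicate 1 or 23DIV basal replicate 2 or 3, 5 without either 21DIV KCl 180 min library, and 13 without 23DIV basal replicate 1. Camk4 kept its call in 15 of 16 such fits, Dlgap3 in 14, Camk2a in 12, Shank2 in 10, Baiap2 in 9, Nrgn in 7, Camk2b in 4 and Ppp3ca in 3. With summed counts Camk2b, Nrgn and Ppp3ca lost their calls, and with thinned counts Camk2b and Shank2.

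**Figure D3:**
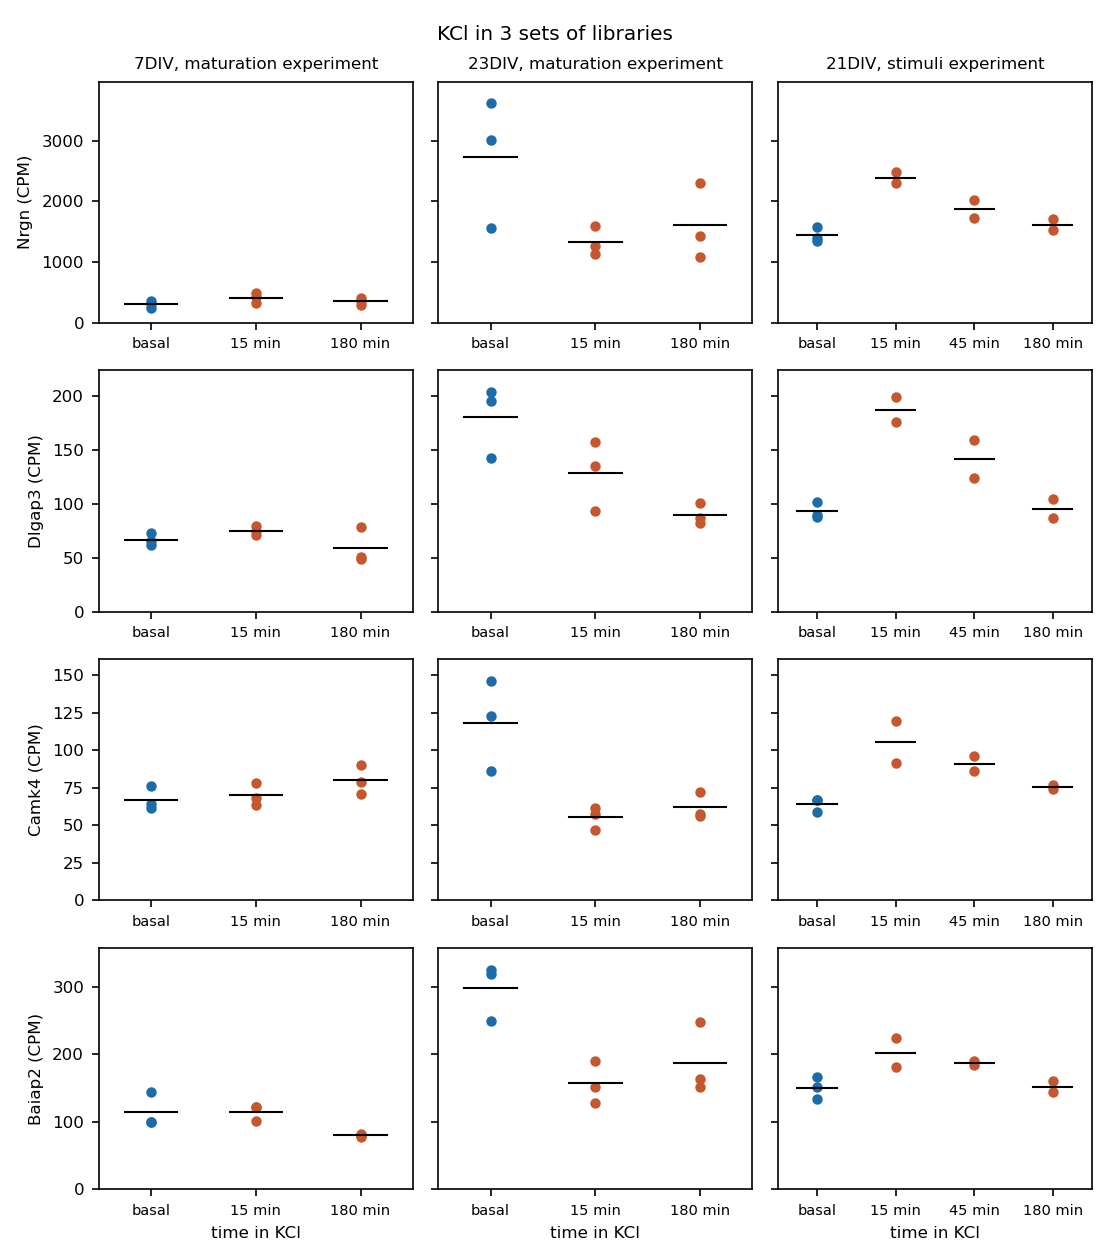
CPM (y axis) of Nrgn, Dlgap3, Camk4 and Baiap2 in each library, basal in blue and KCl in orange with time on the x axis, and bars for means. After 15 min the 23DIV libraries of all 4 genes have a mean below basal and the 21DIV libraries a mean above it, and Nrgn at 7DIV stays between 246 and 493. For Dlgap3 and Baiap2 the transcript counted differs between the experiments.

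Silencing by TTX for 48 h was compared with basal neurons at 21DIV. It lowered 6 of 38 members, where 10.6% of 12023 genes were called lower, and raised 1, Baiap2, where 1324 genes were called higher. The members' median was -0.04. Sorbs2 was at 176, 162 and 146 CPM in basal and 73.05, 61.2, 72.1 and 64.3 CPM in TTX (log2 fold change -1.26 ± 0.12, adjusted p = 1.29e-10). Dlg1 was at 200.1, 205 and 213 CPM in basal and 80.3, 94.2, 111 and 117 CPM in TTX (-1.02 ± 0.12, adjusted p = 1.62e-08). Cnksr2 was at 178, 153 and 157 CPM and then at 72.4, 63.0, 122 and 68.6 CPM (-1.02 ± 0.15, adjusted p = 7.49e-07). In these 3 genes no TTX library reached a basal one.

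Kalrn was at 80.4, 72.9 and 90.6 CPM in basal and 32.3, 38.7, 46.2 and 52.1 CPM in TTX (-0.92 ± 0.16, adjusted p = 2.46e-05), for the transcript with the most counts in this experiment. Camk2d, the delta subunit of CaMKII, was at 283, 294 and 305 CPM and then at 171, 170, 182 and 189 CPM (-0.72 ± 0.10, adjusted p = 6.9e-07). Camk4 was at 58.7, 66.98 and 66.8 CPM and then at 46.7, 32.9, 51.1 and 39.9 CPM (-0.60 ± 0.14, adjusted p = 0.00093). Camk4 lay just past the fold threshold and lost its call without basal replicate 2 or 5 or TTX replicate 2 or 4, at values down to -0.50. Baiap2 was at 152, 133 and 166 CPM in basal and at 254, 258, 303 and 355 CPM in TTX (0.97 ± 0.12, adjusted p = 2.17e-08), the opposite direction to the other called members and again with no overlap.

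The CaMKII subunits other than Camk2d were not called: Camk2a had 151 to 209 CPM in basal and 185 to 227 CPM in TTX. Of the other postsynaptic genes, 12 of 56 were called lower and 5 higher. Marker sums differed between the groups. Astrocyte markers summed to 7356 to 8379 CPM in TTX against 2564 to 3180 in basal, oligodendrocyte lineage markers to 2076 to 2121 against 737 to 1184 and neuron markers to 5948 to 7097 against 7913 to 8499, and their part in the members' changes was not tested.

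TTXw was compared with TTX, the silenced state, whose libraries also entered the comparison above. It lowered 7 of 38 members, where 6.41% of 12023 genes were called lower, and raised 0, where 814 genes were called higher. All 7 had their largest change at 180 min, when 34 of 38 members were lower (median -0.33, against 0.02 over all genes), whereas 28 of 38 were higher at 45 min. Lrrtm1, a synaptic adhesion protein, was at 548, 492, 612 and 599 CPM in TTX, 476, 541 and 543 CPM at 15 min, 556 and 575 CPM at 45 min and 298, 318 and 284 CPM at 180 min (log2 fold change -0.91 ± 0.10, adjusted p = 2.33e-08). Cnksr2 was at 72.4, 63.0, 122 and 68.6 CPM in TTX and 81.6, 81.2 and 86.1, then 102 and 105, and then 41.1, 38.1 and 48.96 CPM (-0.92 ± 0.18, adjusted p = 3.13e-05). Dlg2 was at 141.5, 127, 158 and 168 CPM in TTX, at 177, 150 and 146 CPM at 15 min, 168 and 158 CPM at 45 min and 88.8, 79.5 and 97.9 CPM at 180 min (-0.76 ± 0.13, adjusted p = 1.07e-05). In these genes every 180 min library lay below every TTX library.

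Camk4 was at 44.55, 43.4 and 46.4 CPM at 15 min, 51.2 and 53.5 CPM at 45 min and 26.8, 25.1 and 27.9 CPM at 180 min (-0.67 ± 0.17, adjusted p = 0.000769), below its 4 TTX libraries. Rasgrf1 was at 319, 277, 302 and 312 CPM in TTX, at 335, 313 and 242.5 CPM at 15 min, 320 and 301 CPM at 45 min and 186, 188 and 215 CPM at 180 min (-0.63 ± 0.11, adjusted p = 0.000156). In both, the 180 min libraries lay below every TTX library. Dlg3 was at 54.6, 39.9, 52.5 and 44.5 CPM in TTX and then at 44.2, 51.96 and 56.4, at 56.3 and 51.1, and at 25.5, 33.9 and 33.1 CPM (-0.62 ± 0.17, adjusted p = 0.00548). Dlgap2 was at 36.2, 33.5, 46.2 and 28.7 CPM in TTX and then at 32.6, 27.8 and 34.65, at 54.6 and 34.4, and at 25.5, 19.99 and 24.9 CPM (-0.61 ± 0.21, adjusted p = 0.0193). Dlg3 lost its call without TTXw 180 min replicate 1 or TTX replicate 1 or 3, Dlgap2 without TTXw 180 min replicate 2, TTXw 45 min replicate 1 or TTX replicate 3, and Camk4 without TTX replicate 3, at smallest values of -0.49, -0.48 and -0.58. Dlgap2 also lost it with thinned counts. Without TTXw 45 min replicate 3, 7 members were called lower and 4 higher (Dlgap2, Kalrn, Lrrc7 and Sipa1l1), and without TTX replicate 3, 4 were called lower and 1, Lrrc7, higher. Dlg1, Sorbs2 and Camk2d, which were lower in TTX than in basal, were not called: Sorbs2 had 51.6, 43.7 and 48.2 CPM at 180 min and Dlg1 had 101, 96.7 and 110 CPM. At 180 min neuron markers summed to 3797 to 4780 CPM, astrocyte markers to 10843 to 14907 CPM and oligodendrocyte lineage markers to 2978 to 3638 CPM. All 4 tested interneuron markers (Gad1, Gad2, Sst and Slc32a1) were called lower, with a median log2 fold change of -1.05, and the 5 listed summed to 1837 to 2545 CPM at 180 min against 4098 to 5785 CPM in TTX. Of 7 neuron markers, Snap25, Syt1 and Stmn2 were called lower and 0 higher. Their median at each gene's largest change was -0.415, and that of the members was -0.35. The part of all these markers was not tested. Of the other postsynaptic genes, 6 of 56 were called lower and 1 higher.

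**Figure D4:**
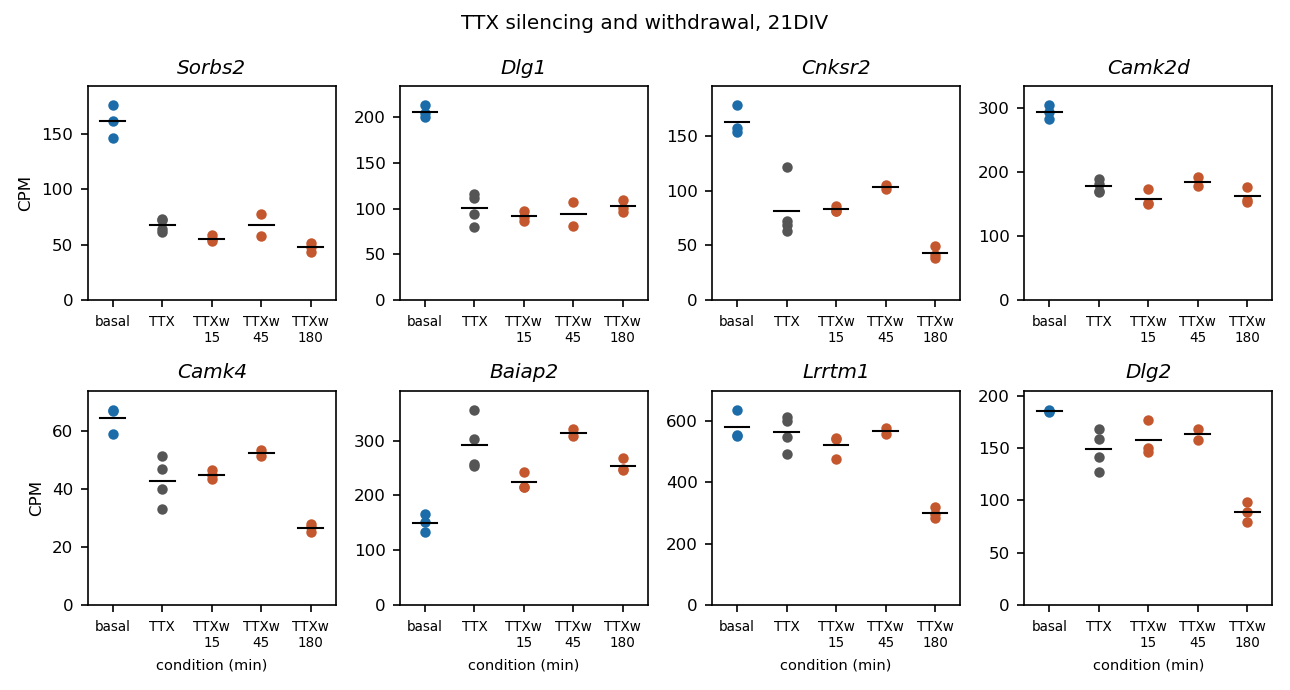
CPM (y axes, from 0) of 8 members in each 21DIV library of basal (blue), TTX (grey) and TTXw at 15, 45 and 180 min (orange), with bars for means. Sorbs2, Dlg1 and Camk2d stay low after TTX is removed, Baiap2 lies higher in TTX than in basal, and Lrrtm1 and Dlg2 are lowest at 180 min of TTXw.

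Since the libraries hold 3′ ends, annotated transcripts of a gene that end at different places were counted apart. This was examined for Kalrn and Rasgrf1, chosen after the data had been seen. Kalrn lies on the minus strand of chromosome 16 (mm10). Its shorter transcript (chr16:34152024-34514048, 34 exons) ends in an exon of 1482 bases (chr16:34152024-34153505) that lies within intron 33 of the longer one (chr16:33975495-34456917, 60 exons) and shares 0 bases with its exons. Their ends lie 176529 bases apart. Reads of unspliced RNA of the longer transcript that fall on this exon cannot be told apart from the shorter transcript. The shorter transcript was at 3.74, 4.82 and 4.64 CPM of all gene counts in basal 7DIV and at 38.2, 93.4 and 96.4 CPM in basal 23DIV libraries (log2 fold change 4.19 ± 0.39, adjusted p = 5.67e-06, called, as were 35.9% of 20580 transcripts tested). The longer transcript was at 56.6, 59.1 and 58.1 CPM and at 50.2, 68.1 and 55.1 CPM (0.08 ± 0.16, adjusted p = 0.722). The ratio of shorter to longer counts was 0.0661 to 0.0816 at 7DIV and 0.761 to 1.75 at 23DIV, so the groups did not overlap.

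In TTX the shorter Kalrn transcript was at 17.8, 18.6, 25.9 and 27.9 CPM against 46.3, 36.8 and 54.4 CPM in basal 21DIV neurons (-0.99 ± 0.19, adjusted p = 7.66e-05, called, as were 22.7% of 23225 transcripts). The longer one was at 32.8, 37.9, 56.9 and 34.3 CPM against 32.5, 41.3 and 24.5 CPM (0.28 ± 0.20, adjusted p = 0.283). The ratio was 0.892 to 2.22 in basal and 0.456 to 0.815 in TTX. The gene values of Kalrn given above are those of other annotated transcripts, which held the most counts. These were 6010 in the maturation experiment, where the shorter and longer transcripts held 4037 and 5640, and 4924 in the stimuli experiment, where they held 2695 and 2510. The 42 Kalrn transcripts with counts had 15 and 18 distinct sets of values, so several shared all their counts. Summed over transcripts, Kalrn was not called in TTX but was called higher in the stage comparison. The difference between the transcripts was not tested.

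Rasgrf1 lies on the plus strand of chromosome 9. Its shorter transcript (chr9:89909909-89915834, 3 exons) ends in an exon of 343 bases (chr9:89915492-89915834) within intron 1 of the longer one (chr9:89909909-90026977, 27 exons) and 111143 bases before the longer one's end. The start region printed above belongs to another annotated start, upstream of theirs. At 21DIV the shorter transcript was at 6.33, 7.43 and 6.89 CPM in basal, 23.1 and 28.6 CPM after 15 min of KCl, 12.8 and 14.0 CPM after 45 min and 11 and 11.1 CPM after 180 min (log2 fold change at 15 min 1.96 ± 0.26, adjusted p = 3.3e-05, called, as were 6.87% of 23225 transcripts). In Bic it was at 19.5 and 10.2, 32.7 and 36.7, and 17.1 and 17.4 CPM (2.39 ± 0.25 at 45 min, adjusted p = 6.05e-07, called, as were 6.98%). Every KCl and Bic library at 21DIV lay above every basal one. In TTX the shorter transcript was at 15.1, 11.4, 11.5 and 12.3 CPM, also above every basal library (0.87 ± 0.26, edgeR adjusted p = 0.00961, called, as were 22.7% of transcripts). At 23DIV it was not called in KCl (-0.56 and -0.57 at 15 and 180 min, adjusted p = 0.421). Nor was it called there in Bic with 4-AP (-0.10 and 0.29, adjusted p = 0.823). The longer transcript was at 333, 271 and 377 CPM in basal, at 230 to 312 CPM in KCl and at 262 to 340 CPM in Bic, with log2 values between -0.42 and 0.13 and no call. Between stages the shorter transcript rose by 1.43 and the longer by 3.44. Reads of unspliced RNA of the longer transcript that fall on this intron cannot be told apart from the shorter transcript.

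**Figure D5:**
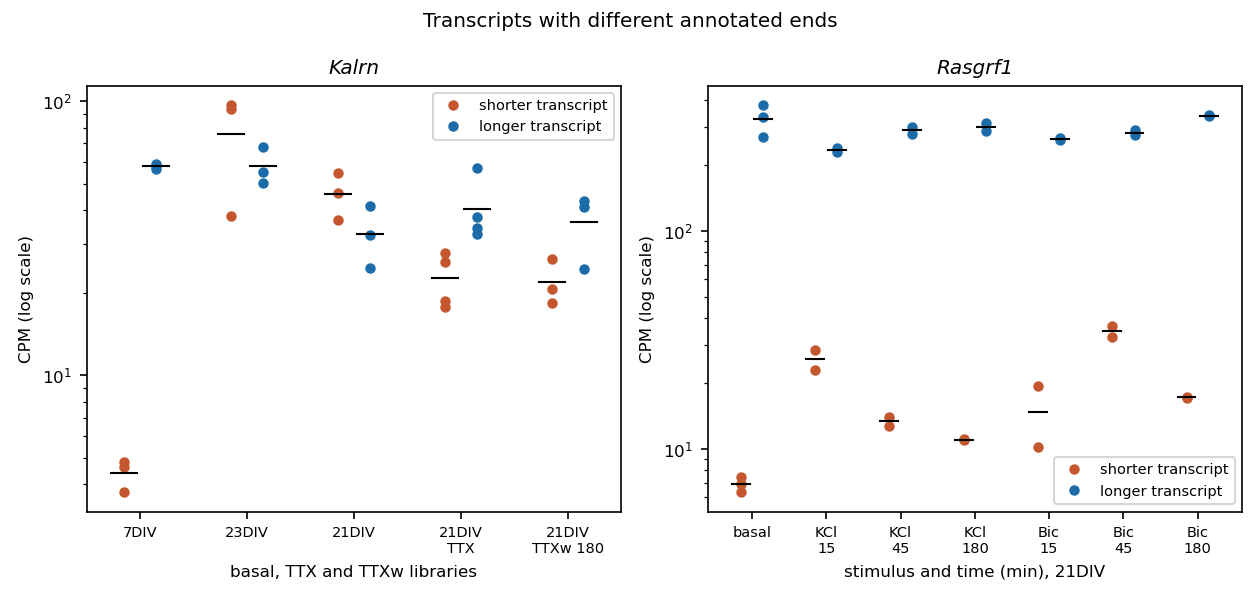
CPM (y axes, log scale) of the shorter (orange) and longer (blue) transcript of Kalrn and Rasgrf1, with a point for each library, with bars for means. Kalrn is shown in basal, TTX and 180 min TTXw libraries, and Rasgrf1 in 21DIV basal, KCl and Bic libraries. In basal libraries of the maturation experiment the shorter Kalrn transcript goes from at most 4.82 CPM at 7DIV to at least 38.2 CPM at 23DIV while the longer one lies between 50.2 and 68.1 CPM, and the shorter Rasgrf1 transcript is highest after 45 min of Bic.

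Over all these comparisons of gene values, 29 of 38 members were called at least once and 9 were not. The share of all genes called at least once was not computed, so the count of 29 cannot be set against it. Single comparisons called up to 33.1% of all genes by stage and 21.7% in TTX. The 9 were Shank1, Shank3 and Homer3, the actin-binding phosphatase partners Ppp1r9a and Ppp1r9b, the adhesion genes Nlgn1, Nlgn3 and Lrrtm2, and Gripap1. Shank3 was at 0.847 to 8.01 CPM (median 3.55) over the 55 libraries and Nlgn3 at 1.39 to 16.8 CPM (median 5.94). Ppp1r9b was at 175 to 352 CPM (median 232), and its log2 fold changes lay between -0.30 and 0.55. Ppp1r9a had an adjusted p of 0.0004 in TTX at a change of 0.54, and Nlgn1 reached -0.58 at 180 min of TTXw, both under the fold threshold.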

How the data were processed

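RNA of 55 samples (28 in the maturation and 27 in the stimuli experiment) was sequenced as 3′ ends with CEL-Seq2 primers that carry a molecular identifier. The authors used STAR (mm10) to align reads and the End Sequence Analysis Toolkit to count them, and deposited whole-number counts per RefSeq transcript, with no normalization. Whether reads sharing an identifier were collapsed is not given in the sources used here, and versions of their tools are not either. Samples were grouped and numbered by their GEO titles. The basal 21DIV sample titled as replicate 5 is numbered 2 in its description and column name, as another basal sample is, and the title was followed.

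Transcripts were matched to genes of RefSeq GRCm38.p6 (80.8% and 80.9% of transcripts in the maturation and stimuli experiments, which left 18.5% and 19.3% of counts unmatched), and the transcript with the highest total in an experiment stood for its gene. Genes with more than 5 CPM in at least 2 samples were tested with edgeR 4.0.16 (R 4.3.3, TMM normalization, quasi-likelihood F-test over all time points together, Benjamini-Hochberg adjustment over all genes tested). A gene was called at an adjusted p under 0.05 and at least 1.5-fold at 1 or more times, and an interaction at an adjusted p under 0.05. Log2 fold changes are given at the time of the largest change, with the standard error taken from the F statistic. The stage comparison fitted the basal samples of both stages, and the others all samples of their experiment. CPM are TMM-normalized, except those of single transcripts, which are scaled to all gene counts without TMM factors. Median depth was 3502561 and 2383101 counts, and few libraries per group limited precision.

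All 38 members are accounted for. Called members are named. Where over 8 were called, values of every library are given for the 4 largest rises and 4 largest falls. Only genes with a mean log2 CPM of at least 3 entered these. Elsewhere they are given for all called members, except in the stage differences, Bic against KCl and KCl between the experiments. There some library values are not given, among them those of Dlgap4, Ppp3ca and Shank2. Other genes named with values, such as Dlg1, Dlg4, Camk2a and the 7DIV levels, are paralogues of these or genes whose interaction was tested. The members and lists were chosen with earlier results of these data known. The scripts were tested on simulated data with known changes. Alternatives were DESeq2 1.42.0, RLE size factors, no filter, counts summed over a gene's transcripts, thinned counts, other samples in the fit, a replicate block and leaving out each library. The comparison of KCl between experiments and the tests of single transcripts were chosen after the data had been seen. Proteins and the genome sequence were not used here.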

Additional observations from a re-analysis of the deposited data

Results flagged for a closer look

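Of the 4 TTX libraries at 21DIV, 1 lay far from the others in Camk2b, at 341 CPM against 263, 263 and 266 CPM, a gap of 0.955 of the group's range. The same library, replicate 3, lay apart in Cnksr2, at 122 CPM against 63.0, 68.6 and 72.4 CPM, a gap of 0.84 of the range. The measure was applied only to the TTX group, once for each of the 38 members. Chance flags about 1 in 20 groups by this measure, so flags of this number can arise by chance.

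The response to KCl differed between 23DIV and 7DIV by -1.47 in Nrgn, -1.18 in Camk4 and -0.88 in Cnksr2 on the log2 scale. The response to Bic with 4-AP differed between these stages by -1.61 in Dlgap3, -1.43 in Nrgn, -1.30 in Camk4, -0.83 in Camk2b, -0.74 in Dlgap4 and -0.49 in Ppp3ca. The response to KCl at 23DIV in the maturation experiment differed from that at 21DIV in the stimuli experiment, in the comparison chosen after the data had been seen, by -1.77 in Camk4, -1.72 in Nrgn, -1.69 in Camk2a, -1.46 in Dlgap3, -1.32 in Baiap2, -1.03 in Shank2, -0.92 in Ppp3ca and -0.81 in Camk2b.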

How the results depend on the processing

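No named change reversed its sign at its time under the alternatives run. Of the 87 named changes, 2 lost their call under DESeq2, 3 under RLE size factors and 1 without a filter on low counts. With counts summed over transcripts 12 lost it, and with thinned counts 14. Fitting only the compared groups, 13 of 58 lost it, with the replicate number as a block 12 of 79, and with all samples fitted 1 of 21. In the fit without 1 library that gave their smallest change, 28 of 79 lost it. Fitting only the compared groups gave 6 members called for KCl at 23DIV against 10. Among the 6 were Camk2a and Shank2, which were not among the 10. The KCl difference between stages had 3 members called, and 8 under DESeq2 (7 lower and 1 higher), 9 without a filter and 1 each under RLE size factors, summed and thinned counts. Bic against KCl had 1, and 2 without a filter and 0 under DESeq2 and with summed counts, and KCl between the experiments had 8, and 16 without a filter and 5 with summed counts. Leaving out 1 library at a time, members called ranged from 5 to 11 for KCl at 23DIV, 6 to 14 for Bic with 4-AP at 23DIV, 0 to 7 and 1 to 7 for the stage differences in KCl and in Bic with 4-AP, 0 to 1 for Bic against KCl, 5 to 11 for TTXw and 1 to 13 for KCl between the experiments. Counted in the direction of the report, lower calls ranged from 5 to 14 for Bic with 4-AP at 23DIV, 0 to 7 for both stage differences and 4 to 9 for TTXw. Higher calls there reached 1 each, and 4 for TTXw. The cause was not tested.

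The replicate numbers did not pair the samples: deviations of same-numbered libraries correlated between -0.2461 and 0.1134 in the maturation and between -0.0922 and 0.1037 in the stimuli experiment. With the replicate number as a block (replicate block), 0 members were called for the stage difference in KCl and 2 for that in Bic with 4-AP, against 3 and 6 without it. Counts under the block were 22 for stage, 0 and 0 at 7DIV, 9 for KCl and 12 for Bic with 4-AP at 23DIV (11 lower and Camk2a higher), 5 for KCl, 6 for Bic, 9 for TTXw and 7 for TTX (5 lower and 2 higher) at 21DIV and 1 for Bic against KCl. Basal 7DIV replicate 4, TTX replicate 4 and basal 21DIV replicate 5 share their number with no sample of their stage, as does basal 23DIV replicate 1 in the stage comparison, so the block takes up their values. The block was not run for KCl between the experiments.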
